A study of Mus musculus with 12 samples.

Results

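Uchl1, 4 synaptotagmins (Syt1, Syt7, Syt11 and Syt13) and 3 Rab3 GTPases (Rab3a, Rab3b and Rab3d) were followed across mouse fibroblasts that carried 2, 1 or 0 disrupted copies of Hotair. They are 8 of the 24132 gene rows of the expression table and were chosen by symbol, as genes best known from neurons and their vesicles that had values in fibroblasts. The choice was made with their levels across the 3 genotypes known, so the levels and differences of these 8 genes are given below as a description, without p-values. Polyadenylated RNA came from neonatal tail tip fibroblasts, connective tissue cells of the tail of newborn mice, in 3 groups of 2 libraries each: Hotair knockout, Hotair heterozygous and Hotair wild type. All 3 groups share a genetic background that was backcrossed to C57BL6, with a similarity to it of over 97%. Hotair is a long noncoding RNA of the HoxC cluster, studied for its part in the silencing of genes by chromatin modification, and the series asks what its loss does to gene expression. Nothing in the labels says that the 2 libraries of a genotype came from separate animals or cultures, so the spread between them, and every p-value resting on it, may be technical.

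Vesicles that carry cargo for release are brought to the plasma membrane and fused with it by the SNARE proteins. Rab3 proteins are small GTPases that sit on such vesicles and recruit effectors, and synaptotagmins are membrane proteins with a pair of C2 domains, which in some members bind calcium and trigger fusion. UCHL1 is a ubiquitin hydrolase that is among the most abundant proteins of neurons, and it releases ubiquitin from small adducts. Fibroblasts secrete matrix mainly by the constitutive route, but several of these genes are also transcribed outside the nervous system.

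The promoter windows of Uchl1 and Rab3b are shown because these 2 genes had the same kind of profile with opposite sign, with both disrupted genotypes far from wild type. Each sequence holds the 250 bases before the gene's start in RefSeq (GRCm38.p6), 5′ to 3′ on the gene's strand, and capitals mark GC boxes, found as GGGCGG or its reverse complement CCGCCC. The Uchl1 window is chr5:66675871-66676120 on the plus strand, and the Rab3b window is chr4:108878820-108879069 on the plus strand.
Uchl1: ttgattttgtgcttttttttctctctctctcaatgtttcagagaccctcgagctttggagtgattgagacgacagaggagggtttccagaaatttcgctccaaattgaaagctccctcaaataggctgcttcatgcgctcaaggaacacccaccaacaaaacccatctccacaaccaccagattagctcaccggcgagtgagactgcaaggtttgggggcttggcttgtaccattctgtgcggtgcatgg
Rab3b: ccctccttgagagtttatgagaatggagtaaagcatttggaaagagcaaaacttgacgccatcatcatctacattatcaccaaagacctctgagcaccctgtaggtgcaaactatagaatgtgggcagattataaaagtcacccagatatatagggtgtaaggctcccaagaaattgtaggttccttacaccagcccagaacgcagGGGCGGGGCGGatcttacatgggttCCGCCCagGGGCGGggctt
RefSeq windows were matched for 6 of the 8 genes (8 windows, since Rab3a and Syt1 have 2 each), and none for Syt7 and Syt13. Windows of 300 bases, which add 50 bases after the start, were searched on both strands for the GC box, the TATA box (TATAAA), the CCAAT box (CCAAT) and the E-box (CACGTG). Of all 32851 such mouse windows, 35.7% held the GC box, 13.6% the TATA box, 37.4% the CCAAT box and 7.15% the E-box. The Uchl1 window held none of the 4 motifs. The Rab3b window held 4 GC boxes, of which 2 overlap each other, and 1 TATA box that starts 120 bases before the gene's start. Rab3d had 3 GC boxes, Syt11 had 2, and the windows of Rab3a had 2 and 0. No GC box overlapped another motif in these windows. CpG dinucleotides numbered 9 in the Uchl1 window and 8 in the Rab3b window, against 26 for Rab3d, 14 for Syt11 and a median of 7 over all windows. These matches describe the letters of the windows only.

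The libraries differed in ways other than the disrupted gene. Depth, recovered from the values as read equivalents, was 48.1M and 46.0M in the knockout libraries, 33.2M and 31.2M in the heterozygous libraries and 29.6M and 27.9M in the wild-type libraries. Hotair was listed at 0 in both knockout libraries, while heterozygous libraries had 0.213 and 0.172 RPKM and wild-type libraries 0.247 and 0.183 RPKM, where RPKM is a read density scaled to gene length and library depth. The limit that a count of 0 allows (3 read equivalents over both knockout libraries) is 0.0287 RPKM. Mean Hotair was 7.5 times this limit in wild-type and 6.72 times it in heterozygous libraries. Those means rest on few reads, at least 8.12 and 5.69 read equivalents in wild type and 7.88 and 5.97 in heterozygous libraries. The ratios leave out the counting error of those means. Xist, the RNA of the inactive X chromosome, was at 0.0209 and 0.00606 RPKM in knockout, 4.65 and 4.46 RPKM in heterozygous and 0.0414 and 0.0479 RPKM in wild-type libraries. The Y-linked gene Eif2s3y was at 4.95 and 5.58 RPKM in knockout, 0.0676 and 0.0541 RPKM in heterozygous and 1.85 and 1.99 RPKM in wild-type libraries. The heterozygous libraries thus stand apart in sex-linked genes, and in them sex and genotype cannot be told apart. The 17 macrophage and osteoclast markers summed to 92.4 and 92.7 RPKM in knockout, 22.3 and 23.9 RPKM in heterozygous and 30.5 and 29.2 RPKM in wild-type libraries. The 10 fibroblast markers, led by Vim, summed to between 5498 and 5916 RPKM in every library, and all 10 passed the filter of 1 RPKM in at least 2 libraries. Within this sum 3 rose and 6 fell in knockout against wild type (limma adjusted p under 0.05), where 40.6% of all genes tested rose and 26.6% fell. By their means Pdgfra was 2.54-fold and Dcn 2.25-fold higher, and Thy1 was 2.01-fold lower. In such bulk RNA, fewer cells of a type and less RNA per cell cannot be told apart.

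Of the 8 genes, 6 passed that filter and 2 (Syt1 and Syt7) did not, as no library reached 1 RPKM for either. In the knockout libraries Uchl1 was highest, followed by Rab3b and Rab3a, which changed places between the 2 libraries, then Syt11, Rab3d and Syt13. In the heterozygous libraries Syt13 was highest, ahead of Rab3a and Uchl1, whose values overlapped, and then Rab3b, Rab3d and Syt11. In the wild-type libraries the order was Uchl1, Rab3a, Syt13, Rab3d, Syt11 and Rab3b. Syt7 and Syt1 came last in every library.

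**Figure D1:**
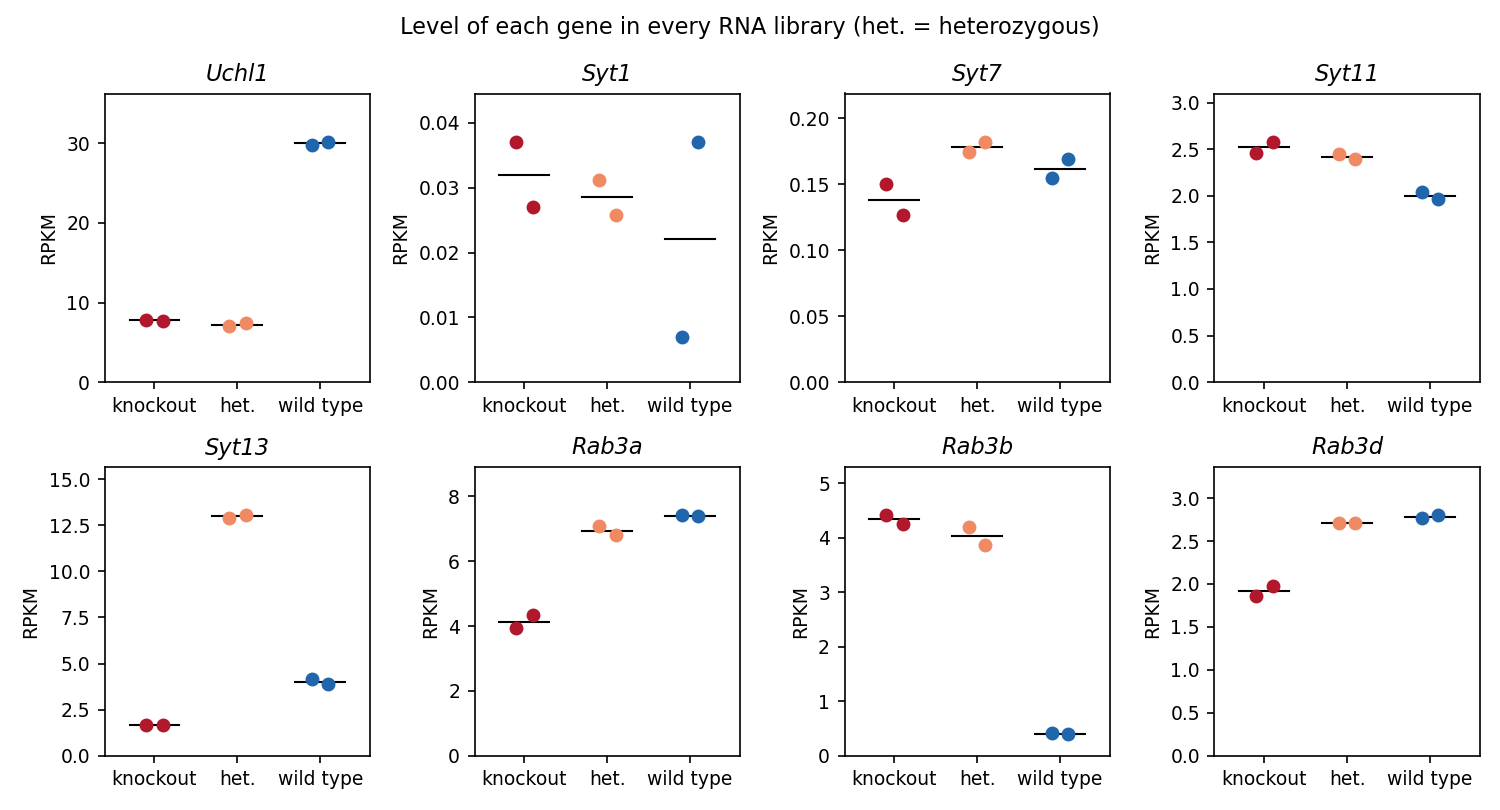
Level of each of the 8 genes in RPKM (linear axes from 0, each with its own range) in the 2 libraries of each genotype, with points for libraries and lines for means. Uchl1 sits near 30 RPKM only in wild type, Rab3b near 0.4 RPKM only in wild type, and Syt13 takes a different level in each genotype.

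Uchl1, the ubiquitin hydrolase, was low in both disrupted genotypes and high in wild type. It stood at 7.85 and 7.67 RPKM in the knockout libraries, 7.03 and 7.37 RPKM in the heterozygous libraries and 29.8 and 30.2 RPKM in the wild-type libraries. The wild-type libraries lie far above the other 4, and the knockout libraries lie just above the heterozygous ones without overlap. The mean was 7.76 ± 0.122 RPKM in knockout, 7.20 ± 0.242 RPKM in heterozygous and 30.0 ± 0.285 RPKM in wild type (SD, n = 2 libraries each). That is 3.87-fold lower in knockout and 4.16-fold lower in heterozygous than in wild type. On the log2(RPKM + 1) scale used for the model, the difference was -1.82 ± 0.04 for knockout against wild type, -1.92 ± 0.04 for heterozygous against wild type and 0.09 ± 0.04 for knockout against heterozygous (SE). The first 2 of these share the wild-type libraries. Among the 10897 genes tested, 0.33% had genotype means further apart on this scale than Uchl1. Behind the values lie at least 133 to 509.7 read equivalents per library, taking the shortest row length that the values allow.

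Most neuron markers were near 0. Of 16 markers 12 stayed under 1 RPKM in every library, among them Rbfox3, Mapt, Dcx and Snap25, and Snap25 was listed at 0 in 5 of the 6 libraries. The list summed to 29.1 and 30.1 RPKM in knockout, 37.0 and 36.0 RPKM in heterozygous and 45.0 and 45.6 RPKM in wild-type libraries. Most of it was Tubb3, the beta tubulin of neurons that other cells also use, at 22.4 ± 0.691 RPKM in knockout, 28.3 ± 0.78 RPKM in heterozygous and 36.9 ± 0.815 RPKM in wild type (SD, n = 2 each). Gap43, a growth cone protein, fell by 0.36 ± 0.05 in knockout against wild type (limma adjusted p = 0.0005). Map2, a microtubule protein of dendrites, was higher in knockout, at 1.51 and 1.49 RPKM against 0.799 and 0.625 RPKM in wild type. Map2 passed the filter only through its knockout libraries, so its difference (0.55 ± 0.06) is given without a p-value. The list thus moved both ways, and its part in the Uchl1 difference was not tested. RefSeq places a noncoding gene, Uchl1os, over Uchl1. No source used here states a strand setting for the counting, and reads of the pair cannot be told apart.

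Syt1 and Syt7, the calcium-sensing synaptotagmins of the set, were barely measured. Syt1, the sensor of fast neurotransmitter release, was at 0.0370 and 0.0270 RPKM in knockout, 0.0311 and 0.0259 RPKM in heterozygous and 0.00699 and 0.0371 RPKM in wild-type libraries, which is between 0.5 and 4.3 read equivalents. The 3 genotypes overlap and a difference was not detectable at this depth. Syt7, a slower and more sensitive calcium sensor that acts also in lysosome exocytosis, was at 0.150 and 0.126 RPKM in knockout, 0.175 and 0.182 RPKM in heterozygous and 0.154 and 0.169 RPKM in wild-type libraries. The values rest on 15.9 to 25.1 read equivalents, and both knockout libraries lie below every other library, by less than their own spread.

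Syt11, a synaptotagmin that does not bind calcium, varied least among the 6 genes that passed the filter. It stood at 2.46 and 2.58 RPKM in the knockout libraries, 2.45 and 2.39 RPKM in the heterozygous libraries and 2.04 and 1.96 RPKM in the wild-type libraries. The 4 libraries of the disrupted genotypes lie above both wild-type libraries. The log2 difference was 0.23 ± 0.05 for knockout against wild type and 0.19 ± 0.05 for heterozygous against wild type, and 57.1% of the genes tested had genotype means further apart. After quantile normalization these differences shrank to 0.02 and 0.05.

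Syt13, a synaptotagmin without calcium binding that has been studied in endocrine cells, took a separate level in each genotype. It was at 1.66 and 1.67 RPKM in the knockout libraries, 12.9 and 13.1 RPKM in the heterozygous libraries and 4.14 and 3.91 RPKM in the wild-type libraries. No 2 genotypes overlap, and the heterozygous level is not between the other two. The mean was 1.67 ± 0.00443 RPKM in knockout, 13.0 ± 0.0962 RPKM in heterozygous and 4.03 ± 0.161 RPKM in wild type (SD, n = 2 libraries each). The knockout level was 0.414 of the wild-type level, the heterozygous level was 3.23-fold above wild type, and the knockout level was 7.79-fold below the heterozygous one. On the log2(RPKM + 1) scale these differences were -0.91 ± 0.04, 1.48 ± 0.04 and -2.39 ± 0.04 (SE). Of the 10897 genes tested, 15 had genotype means further apart than Syt13. Summed over the 4 synaptotagmins, the level was 4.31 and 4.40 RPKM in knockout, 15.6 and 15.7 RPKM in heterozygous and 6.34 and 6.08 RPKM in wild-type libraries. Syt13 made up 37.9% to 38.6% of that sum in knockout, 82.9% to 83.4% in heterozygous and 64.3% to 65.3% in wild type.

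The sum of the Schwann cell and neural crest markers stood in the same order as Syt13, as did 6 of the 11 markers. This order is not particular to that list. By their means, 3 of 4 endothelial, 4 of 16 neuron, 2 of 6 mast cell and 2 of 10 fibroblast markers also had it. None of the macrophage and osteoclast, melanocyte or keratinocyte markers did, and the share of all genes with this order was not counted. The 11 Schwann cell and neural crest markers summed to 19.1 and 19.7 RPKM in knockout, 38.1 and 36.8 RPKM in heterozygous and 29.9 and 30.1 RPKM in wild-type libraries, and none was at 0 in every library. Ngfr, the low-affinity neurotrophin receptor, carried most of the sum, at 10.9 and 11.2 RPKM in knockout, 23.9 and 23.3 RPKM in heterozygous and 21.0 and 20.1 RPKM in wild-type libraries. Sox10, the transcription factor of neural crest and glia, was at 2.02 and 2.10 RPKM in knockout, 5.07 and 4.92 RPKM in heterozygous and 3.20 and 3.67 RPKM in wild-type libraries. Both have the order of Syt13, as do the means of Erbb3 and Foxd3, among others. The other 5 markers (Egr2, Mbp, S100b, Cdh19 and Gfap) do not, and in none of them is knockout lowest. Egr2, a transcription factor of myelinating cells, rose to 2.73 ± 0.068 RPKM in knockout, against 1.84 ± 0.18 RPKM in wild type (0.39 ± 0.06, limma adjusted p = 0.000705). The part of these markers in the Syt13 difference was not tested, and the heterozygous libraries are also those with Xist.

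**Figure D2:**
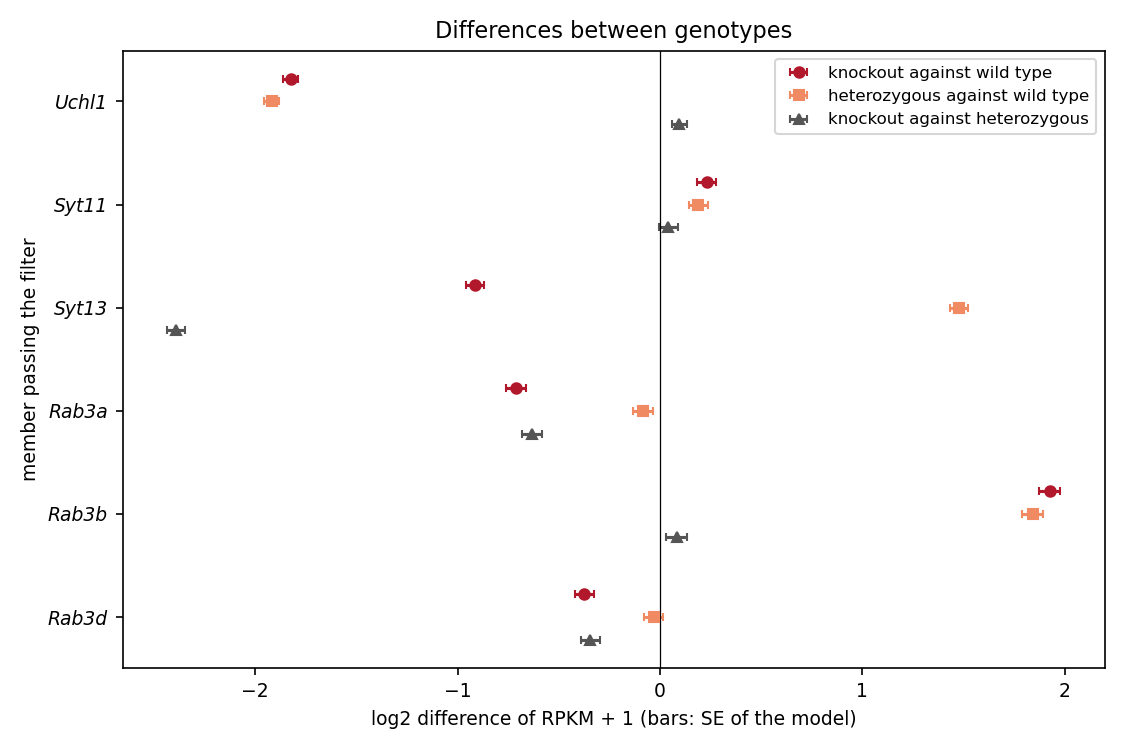
Difference between genotypes on the log2(RPKM + 1) scale for the 6 genes that passed the filter, with bars for the SE of the model. Uchl1 lies near -1.9 and Rab3b near 1.9 in both comparisons with wild type, which share the wild-type libraries, and Syt13 has opposite signs in them.

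The Rab3 GTPases differed in both direction and size. Rab3a, the main Rab3 of synaptic vesicles, stood at 3.94 and 4.33 RPKM in the knockout libraries, 7.08 and 6.81 RPKM in the heterozygous libraries and 7.42 and 7.39 RPKM in the wild-type libraries. The knockout libraries lie well below the other 4, while heterozygous and wild type are close together without overlap. Rab3a averaged 4.14 ± 0.278 RPKM in knockout, 0.558 of the 7.41 ± 0.0208 RPKM in wild type (SD, n = 2 each). Its log2 difference was -0.71 ± 0.05 for knockout against wild type, -0.08 ± 0.05 for heterozygous against wild type and -0.63 ± 0.05 for knockout against heterozygous.

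Rab3b, a Rab3 known from pituitary and epithelial cells as well as neurons, was the reverse of Uchl1. It was at 4.41 and 4.26 RPKM in the knockout libraries, 4.20 and 3.87 RPKM in the heterozygous libraries and 0.408 and 0.402 RPKM in the wild-type libraries. The 4 libraries of the disrupted genotypes lie far above both wild-type libraries, and knockout lies only just above heterozygous. The mean was 4.34 ± 0.11 RPKM in knockout, 4.04 ± 0.234 RPKM in heterozygous and 0.405 ± 0.00437 RPKM in wild type (SD, n = 2 each), ratios of 10.7 and 9.96 to wild type. Rab3b passed the filter only through its 4 knockout and heterozygous libraries. The log2(RPKM + 1) difference understates such a low gene: it was 1.92 ± 0.05 for knockout against wild type and 1.84 ± 0.05 for heterozygous against wild type, and the knockout value ran between 0.79 and 3.13 over the other settings tried, with the pseudocount moving it most. The wild-type values still rest on 40.2 and 37.3 read equivalents, against 705 and 651 in knockout. A gene of RefSeq that overlaps Rab3b, 8030443G20Rik, stayed at or under 0.16 RPKM.

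Rab3d, the Rab3 of secretory granules in exocrine and mast cells, was lower in knockout by a small step. It was at 1.86 and 1.97 RPKM in the knockout libraries, 2.71 and 2.71 RPKM in the heterozygous libraries and 2.77 and 2.80 RPKM in the wild-type libraries. The knockout libraries lie below the other 4, as for Rab3a, and its log2 differences were -0.37 ± 0.05 for knockout against wild type, -0.03 ± 0.05 for heterozygous against wild type and -0.34 ± 0.05 for knockout against heterozygous. After quantile normalization the knockout difference from wild type was -0.60. Of 6 mast cell markers Cpa3, Tpsb2 and Fcer1a were at 0 in every library. Mcpt4, a protease of connective tissue mast cells, was at 0.428 and 0.492 RPKM in knockout, 1.11 and 1.01 RPKM in heterozygous and 0.798 and 0.354 RPKM in wild-type libraries, and the whole list summed to between 0.708 and 1.66 RPKM. The part of these markers in the Rab3d difference was not tested.

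The sum of the 3 Rab3 genes differed far less between knockout and wild type than its makeup did. It was 10.4 ± 0.246 RPKM in knockout, 13.7 ± 0.423 RPKM in heterozygous and 10.6 RPKM in wild type (SD, n = 2). Rab3b made up 40.3% to 43.2% of it in knockout, 28.9% to 30.1% in heterozygous and 3.8% to 3.85% in wild type. Rab3a made up 38.5% to 41.0% in knockout, 50.6% to 50.8% in heterozygous and 69.8% to 70.0% in wild type.

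**Figure D3:**
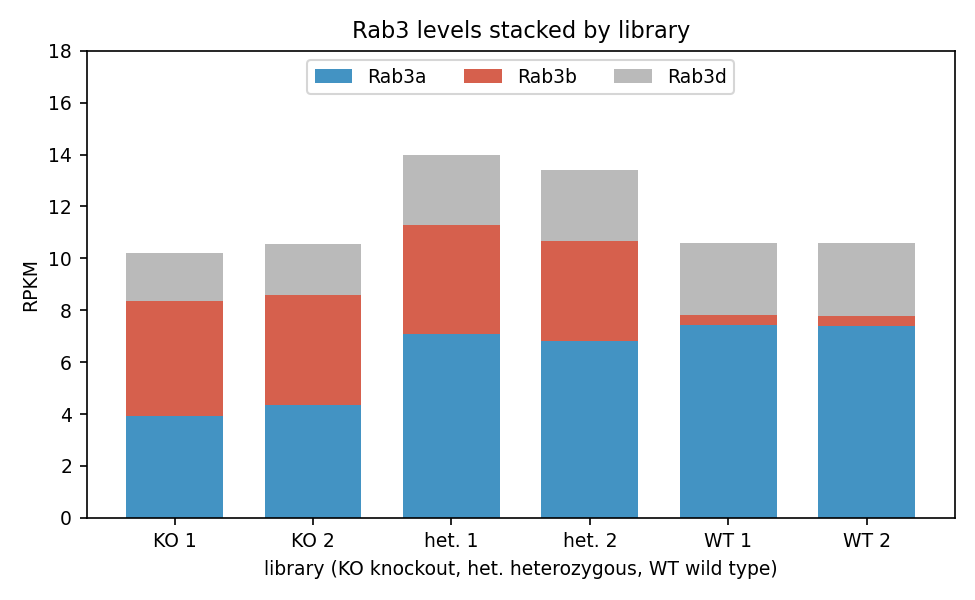
Summed RPKM of Rab3a, Rab3b and Rab3d in each of the 6 libraries, stacked by gene. The knockout and wild-type stacks are of like height, near 10 RPKM, and Rab3b is a thin band only in wild type.

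Counts of calls describe how these genes stood in the fit across all genes, and nothing is read from them, since the levels chose the genes. A gene was called where limma's Benjamini-Hochberg adjusted p was under 0.05. For knockout against wild type, 2 of the 6 genes were called higher and 4 lower, where 67.2% of all 10897 genes tested were called, and of genes at least 2-fold apart on the log2(RPKM + 1) scale (2.55% of all) there were 1 higher, where 1.83% of all genes were, and 1 lower, where 0.725% were. For heterozygous against wild type, 3 were called higher, 1 lower and 2 not, where 52.6% of all genes were called, and of genes at least 2-fold apart (1.18% of all) there were 2 higher, where 0.771% of all genes were, and 1 lower, where 0.413% were. For knockout against heterozygous, 0 were called higher, 3 lower and 3 not, where 51.8% of all genes were called, and of genes at least 2-fold apart (0.725% of all) there were 0 higher, where 0.486% of all genes were, and 1 lower, where 0.239% were. Of all calls 60.4% were higher in knockout against wild type, but 46.7% with quantile normalization and 47.7% with median scaling. For heterozygous against wild type 67.5% were higher, but 51.1% with quantile normalization and 46.5% with median scaling.

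The other genes of the same machinery were followed in 5 lists. Of 109 listed genes 108 were in the table and 50 passed the filter. For knockout against wild type 16 of the 50 rose and 15 fell, 62% in all, beside 40.6% higher and 26.6% lower over all genes. None reached 1 on the log2 scale, where 2.55% of all genes were called and did. The median log2 difference was -0.01 for these 50 genes and 0.06 for all genes. The split depends on scaling: it was 15 higher and 23 lower after quantile normalization and 11 higher and 25 lower after median scaling. For heterozygous against wild type 10 rose and 13 fell, beside 35.5% and 17.1% over all genes. The split was 12 higher and 14 lower after quantile normalization and 5 higher and 18 lower after median scaling. In the main fit 1 gene, Sytl1, fell by over 1 on the log2 scale, where 0.413% of all genes were called and did. For knockout against heterozygous 11 rose and 13 fell, beside 26.4% and 25.4% over all genes. Here Sytl1 rose by over 1, where 0.486% of all genes were called and did.

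Of 13 other synaptotagmins only Syt5 and Syt17 passed the filter, and neither was called for knockout against wild type, though Syt17 (-0.19 ± 0.08, limma adjusted p = 0.0597) was called in 7 of 14 alternative settings. Syt17 averaged 1.06 ± 0.038 RPKM in knockout, 1.15 ± 0.18 RPKM in heterozygous and 1.35 ± 0.16 RPKM in wild type, and Syt2 and Syt10 were at 0 in every library. Syt5 fell by 0.27 ± 0.09 in heterozygous against wild type (limma adjusted p = 0.0323), a call kept in 11 of 14 alternative settings.

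Of 25 genes of the Rab3 cycle and its effectors 12 passed, and 4 rose and 2 fell for knockout against wild type (50% called, beside 67.2% of all genes). Chm, the escort protein that brings Rab proteins to the prenylating enzyme, averaged 2.20 ± 0.14 RPKM in knockout. Wild type stood at 0.962 ± 0.027 RPKM (log2 difference 0.70 ± 0.06). No wild-type library reached 1 RPKM for Chm, which passed the filter only through its knockout and heterozygous libraries. Chm is therefore given without a p-value, though the 4 that rose include it. Rabggta, the alpha subunit of that prenylating enzyme, fell to 4.54 ± 0.2 RPKM in knockout, against 6.71 ± 0.37 RPKM in wild type (-0.48 ± 0.05, limma adjusted p = 0.000169). Rab3ip, an exchange factor best known for Rab8, fell to 3.89 ± 0.12 RPKM in knockout, against 6.43 ± 0.23 RPKM in wild type (-0.60 ± 0.04, limma adjusted p = 1.9e-05). Members of this list moved both ways. Gdi2, an abundant factor that recycles Rab proteins from membranes, rose by 0.11 ± 0.02 (limma adjusted p = 0.00437), a call kept in 14 of 15 alternative settings. Sytl2, an effector of Rab27, was higher in knockout by 0.45 ± 0.07. It passed the filter only through its knockout libraries, so it is given without a p-value, though the 4 that rose include it. The neuronal effectors Rims1 and Rims2 and the neuronal Rab3c were under 0.05 RPKM in every library.

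Of the SNARE fusion genes 32 were in the table and 18 passed, of which 5 rose and 7 fell for knockout against wild type (66.7% called, beside 67.2% of all genes). Vamp2, the vesicle SNARE of synapses and of other secretory cells, averaged 6.99 ± 0.13 RPKM in knockout, 6.82 ± 0.26 RPKM in heterozygous and 4.60 ± 0.033 RPKM in wild type. It rose by 0.51 ± 0.04 in knockout (limma adjusted p = 3.56e-05) and by 0.48 ± 0.04 in heterozygous (limma adjusted p = 0.000114) against wild type. Nsf, the ATPase that takes spent SNARE complexes apart, averaged 14.3 ± 0.2 RPKM in knockout, 16.6 ± 0.12 RPKM in heterozygous and 19.2 ± 0.22 RPKM in wild type. It fell by 0.39 ± 0.03 in knockout (limma adjusted p = 2.98e-05). Its adaptor Napa fell by 0.26 ± 0.03 (limma adjusted p = 0.000237), the endosomal SNARE Vamp8 by 0.34 ± 0.04 (limma adjusted p = 0.000124) and Snap47, a relative of Snap25, by 0.32 ± 0.03 (limma adjusted p = 0.000129).

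Of 25 genes of vesicle membranes and granule cargo 5 passed, with 1 higher and 2 lower for knockout against wild type (60% called, beside 67.2% of all genes). Cpe, which trims peptide hormones in granules, averaged 49.8 ± 0.4 RPKM in knockout, 52.8 ± 1.8 RPKM in heterozygous and 39.3 ± 0.079 RPKM in wild type, and rose by 0.33 ± 0.03 in knockout (limma adjusted p = 4.78e-05). Syn1, a phosphoprotein that tethers synaptic vesicles, fell to 1.42 ± 0.11 RPKM in knockout, against 2.45 ± 0.051 RPKM in wild type (-0.51 ± 0.06, limma adjusted p = 0.000276). Sypl, a relative of synaptophysin, fell by 0.14 ± 0.05 (limma adjusted p = 0.0413), a call kept in 10 of 15 alternative settings.

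All 13 ubiquitin hydrolase and ubiquitin genes passed, and 6 rose and 4 fell for knockout against wild type (76.9% called, beside 67.2% of all genes). None moved as far as Uchl1 did. Uchl5, a hydrolase of the same family that works at the proteasome, averaged 3.28 ± 0.27 RPKM in knockout, 2.90 ± 0.012 RPKM in heterozygous and 2.10 ± 0.084 RPKM in wild type, and rose by 0.47 ± 0.06 in knockout (limma adjusted p = 0.000265). Uchl3, the closest relative of Uchl1 in the list, rose by 0.47 ± 0.06 (limma adjusted p = 0.00033), but Uchl4 is nearly identical to it and reads of the pair may have been split, so both are uncertain. Usp5, which takes apart free ubiquitin chains, fell to 35.4 ± 0.86 RPKM in knockout, against 49.9 ± 0.029 RPKM in wild type (-0.49 ± 0.03, limma adjusted p = 4.85e-06).

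**Figure D4:**
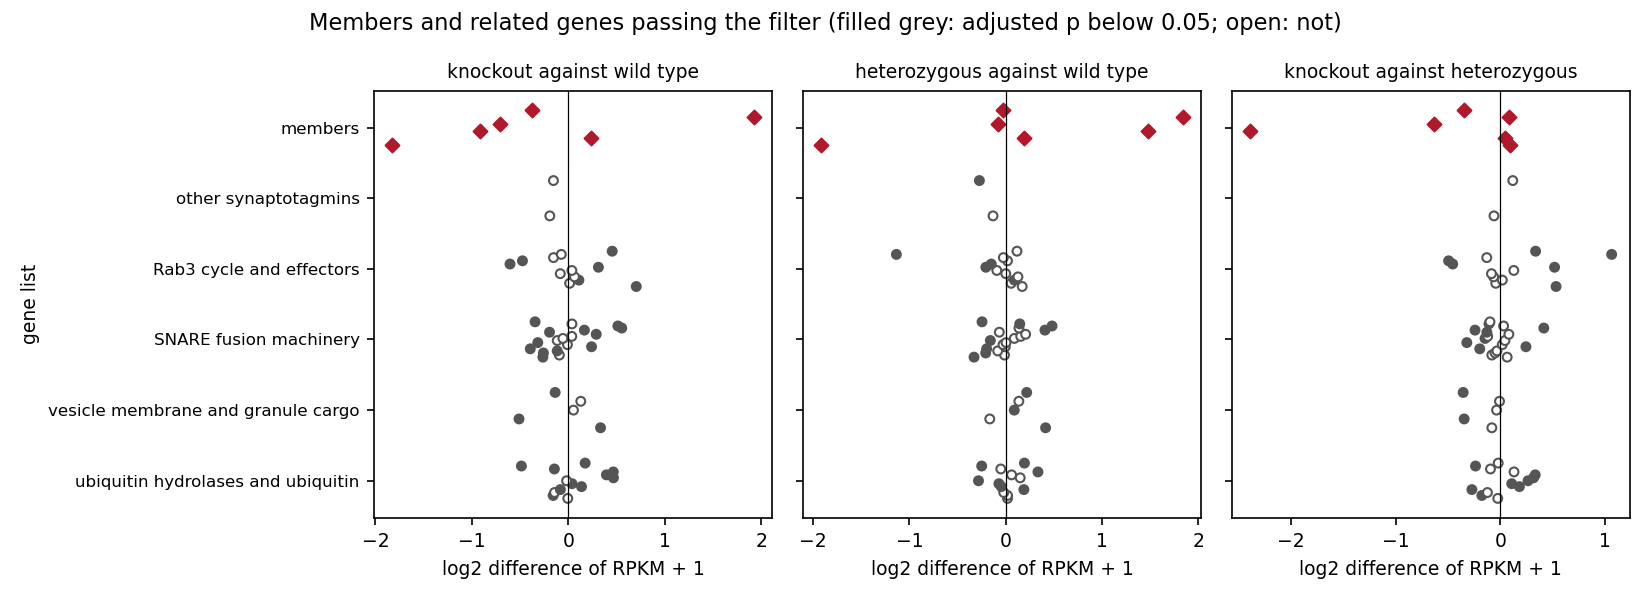
Log2(RPKM + 1) differences of the related genes that passed the filter, by list, for each comparison, with the 6 genes of the set that passed as diamonds in the top row and filled circles for adjusted p under 0.05. Nearly all related genes lie between -1 and 1, and Sytl1 alone passes 1 in size, in the comparisons with the heterozygous libraries.

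For each of the 3 genes whose genotype means lay at least 1 apart, the 3 tested genes with the nearest profile were found, as the Euclidean distance between log2(RPKM + 1) values of the 6 libraries after centring. Nearest to Uchl1 was Tgm2, a protein-crosslinking enzyme (distance 0.15), with 4.07 and 4.16 RPKM in knockout, 3.32 and 3.81 RPKM in heterozygous and 16.0 and 15.4 RPKM in wild type. It was followed by 1500015A07Rik (0.19) and Slfn2, a Schlafen family gene (0.33). All are low in both disrupted genotypes. Nearest to Rab3b was Dio3, the deiodinase that inactivates thyroid hormone (0.16), with 82.2 and 84.7 RPKM in knockout, 81.5 and 82.8 RPKM in heterozygous and 20.4 and 20.2 RPKM in wild type. Cxcl5, a neutrophil chemokine (0.25), and Ptx3, a secreted pattern recognition protein (0.41), followed. A near profile on this scale need not mean a like ratio of RPKM. Knockout was 10.7-fold above wild type for Rab3b but 4.11-fold for Dio3. It was 3.87-fold below wild type for Uchl1, 3.81-fold for Tgm2, 12.3-fold for 1500015A07Rik and 7.71-fold for Slfn2. Syt13 had no neighbour as close: Gm12505 came at 0.44, and the proliferin genes Prl2c1 and Prl2c3 at 0.60 and 0.63. Proliferin genes resemble each other and may share reads, so these last values are uncertain.

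**Figure D5:**
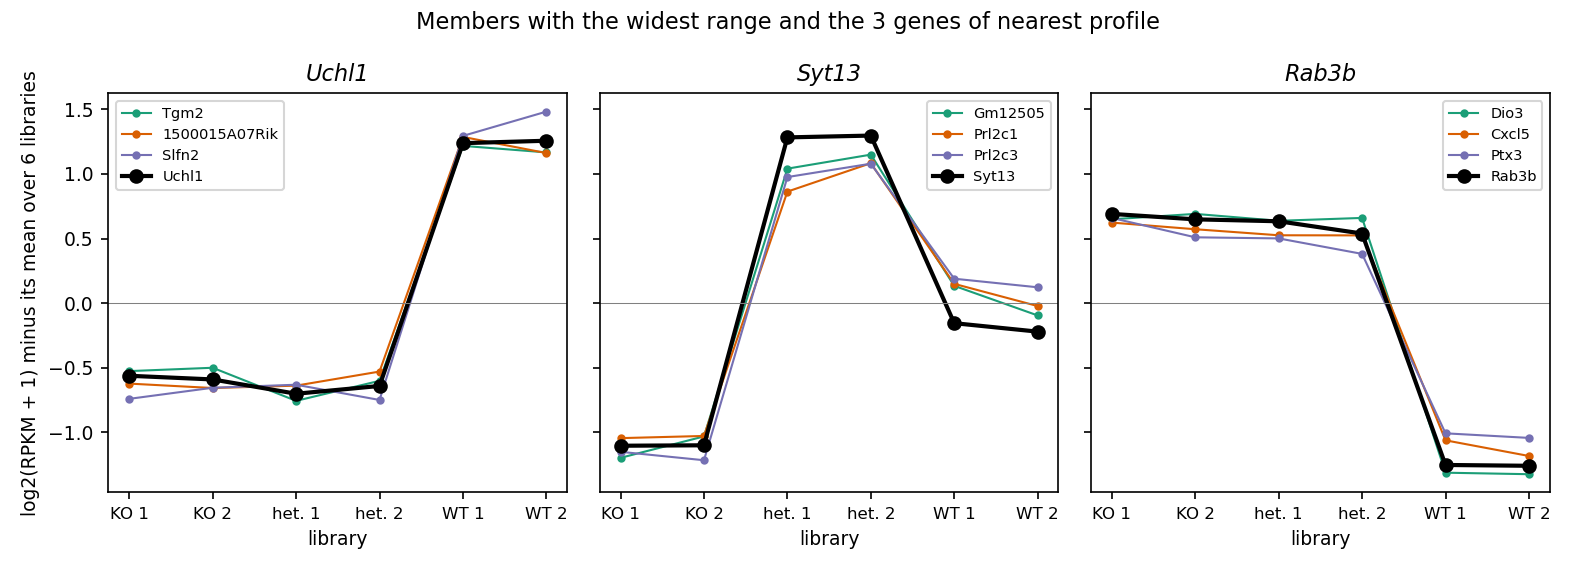
Centred log2(RPKM + 1) values over the 6 libraries for Uchl1, Syt13 and Rab3b, each with the 3 tested genes nearest to it. On this scale the first neighbours of Uchl1 and Rab3b lie nearer to them (0.15 and 0.16) than that of Syt13 does (0.44). The third neighbour of Rab3b stands at 0.41.

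The genes that flank the 8 on their chromosomes, in RefSeq's gene order, gave 15 rows, of which 10 passed the filter. None differed by 1 or more on the log2 scale in any comparison. Few of all genes tested did: 2.55% were called and that far apart for knockout against wild type. The share was 1.18% for heterozygous against wild type and 0.725% for knockout against heterozygous. For knockout against wild type 3 were called higher, 5 lower and 2 not, where 40.6% of all genes were called higher and 26.6% lower. These genes were taken up after the values of the 8 were seen. Beside Uchl1, Apbb2, an adaptor that binds the amyloid precursor protein, averaged 6.26 RPKM in knockout, 7.44 RPKM in heterozygous and 7.01 RPKM in wild type (-0.14 ± 0.04 for knockout against wild type, limma adjusted p = 0.0107). Beside Syt13, Chst1, a carbohydrate sulfotransferase, averaged 6.18 RPKM in knockout, 5.16 RPKM in heterozygous and 5.35 RPKM in wild type, and the heterozygous and wild-type libraries overlapped. Beside Rab3b, Nrd1, a metalloendopeptidase, averaged 19.2 RPKM in knockout, 15.8 RPKM in heterozygous and 14.9 RPKM in wild type (0.35 ± 0.04 for knockout against wild type, limma adjusted p = 0.000177). Kti12, on the other side of Rab3b, differed by 0.04 ± 0.04 for knockout against wild type and rose by 0.19 ± 0.04 for heterozygous against wild type (limma adjusted p = 0.00628). In knockout against wild type, Mpv17l2 beside Rab3a fell by 0.37 ± 0.06 (limma adjusted p = 0.000867). Tmem205 beside Rab3d fell by 0.28 ± 0.04 (limma adjusted p = 0.000775). Both moved in the direction of the gene beside them, as did Apbb2, Nrd1 and Gon4l (0.26 ± 0.04), which lies beside Syt11. Chst1 moved against Syt13, and Rit1 (-0.10 ± 0.03), on the other side of Syt11, moved against Syt11. Pawr, beside Syt1, fell by 0.62 ± 0.08, but Syt1 itself was too low for a direction to be read.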

How the data were processed

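RNA-seq of 6 libraries was used, and 6 ChIP-seq libraries of the series are not analysed here. The deposited table holds 1 value per gene symbol and library, which were identified as RPKM from the deposited values themselves. The submitters' processing notes name TopHat and the mm9 build, and libraries were made by a protocol that marks the strand, per the labels' protocols. The gene models, filters and strand setting of the counting were not given in the sources used here. Deposited values were whole numbers of aligned bases per row once a read was taken as 74 bases, which gave the depths. Row lengths are the shortest that fit, so read equivalents per gene are lower bounds.

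Values were taken as log2(RPKM + 1) for the 10897 genes with 1 RPKM or more in 2 or more libraries. limma 3.58.1 (R 4.3.3) fitted 1 mean per genotype, with trended eBayes and 3 residual degrees of freedom. P-values are two-sided, with Benjamini-Hochberg adjustment over all genes tested and a threshold of 0.05. Intervals and floors cover counting error only. Labels number the replicates 1 and 2 in every genotype, and these numbers did not pair the libraries.

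The 8 genes and all lists were chosen with earlier results of these data known. Named were the 8 genes, of each related list up to 4 members with the lowest p for knockout against wild type and the 2 with the highest mean, the 3 nearest profiles and marker genes, of which some list members are not reported here. Flanking genes, sex-linked genes, Sytl1, Rims1, Rims2, Rab3c, Syt2, Syt10 and Rph3a were named after their values were seen. Promoter windows and gene names are from RefSeq.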

Additional observations from a re-analysis of the deposited data

How the results depend on the processing

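No called difference of the 6 genes that passed the filter changed sign in any setting that kept the gene, which was 15 for Uchl1, Syt13 and Rab3a and 14 for Syt11, Rab3b and Rab3d; Syt1 and Syt7 had 1, without the filter (the settings were other pseudocounts, filters, sets of genotypes and a fit without the trend, quantile normalization, median scaling, a replicate block and leaving out each library). Their size moved by more than the replicate spread in 51 values and by less in 216. The number of genes called for knockout against wild type was 7324, and 4754 with a filter of 5 RPKM. Leaving out each library gave 6247 to 7387 for knockout against wild type, 4732 to 5273 for heterozygous against wild type and 4120 to 5698 for knockout against heterozygous. Among the related genes it gave 25 to 33, 20 to 21 and 20 to 25 calls. Genes at least 2-fold apart in knockout against wild type numbered 278, or 677 with a pseudocount of 0.1 and 85 with one of 5. With the replicate block, 7253, 5564 and 5448 genes were called in the 3 comparisons and 31, 24 and 24 of the related genes. Deviations of libraries with the same number correlated at -0.06 (knockout and wild type), -0.09 (heterozygous and wild type) and 0.06 (knockout and heterozygous). With 2 libraries per genotype and depth, sex-linked genes and genotype moving together, the cause of no difference was tested.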

Other observations

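A pair of Rab effector genes stood out among the related genes, and both were picked out after their values were seen. Rph3a, which encodes rabphilin, an effector of Rab3 on synaptic vesicles, stayed under the filter of 1 RPKM. It was at 0.00501 and 0.00524 RPKM in the knockout libraries, 0.0866 and 0.0918 RPKM in the heterozygous libraries and 0.750 and 0.622 RPKM in the wild-type libraries. The 3 genotypes do not overlap, and knockout is lowest. These levels rest on 2 read equivalents in knockout, 24 in heterozygous and 164 in wild type. The depth-adjusted ratio was 0.00745 for knockout against wild type (95% exact interval 0.000895 to 0.0274) and 0.131 for heterozygous against wild type (0.0814 to 0.201), intervals that cover counting error only. In the fit without the filter the log2(RPKM + 1) difference was -0.75 ± 0.04 for knockout against wild type. For heterozygous against wild type it was -0.63 ± 0.04 (SE). Rph3a was picked by these values, so no p-value is given.

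Sytl1, a synaptotagmin-like effector of Rab27, was low in the heterozygous libraries. It was at 2.67 and 2.91 RPKM in knockout, 0.900 and 0.727 RPKM in heterozygous and 2.70 and 3.28 RPKM in wild-type libraries. Knockout and wild type overlap, and heterozygous lies below both. Sytl1 passed the filter only through its knockout and wild-type libraries, where it is high, so its differences are given without p-values. The log2 difference was -1.14 ± 0.08 for heterozygous against wild type and 1.06 ± 0.08 for knockout against heterozygous (SE). The heterozygous libraries are also those with Xist and with low Y-linked genes, and the part of sex in this difference was not tested.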
